A study of Mus musculus with 78 samples.

Results

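The Bcl2 family decides whether the outer membrane of the mitochondria stays closed, and 10 of its genes are described here in single blastomeres of the mouse embryo. They are the survival genes Bcl2l10, Mcl1, Bcl2l1 and Bcl2, the effectors Bax and Bak1, and the BH3-only genes Bid, Bik, Bcl2l11 and Bbc3. They were chosen by name, and their rows were found by Entrez number. Of the 15218 genes in the 4-cell table, 9 were members, since Bik had no row there. Of the 15342 genes in the 8-cell table, 9 were members, since Bcl2 had no row there. The remaining 8 members had a row at both stages.

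The study sequenced single blastomeres by Smart-seq2, which reads whole transcripts, from embryos in which a recombined colour cassette marks the descendants of each 2-cell blastomere. Embryos came from a cross of mice with the Brainbow2.1 cassette at the Gt(ROSA)26Sor locus (the tm1 allele, Cle/J) and Tg(CAG-cre/Esr1*)5Amc/J mice. All embryos therefore carried the cassette and a tamoxifen-dependent Cre, both under the broadly active CAG promoter, and all had 2 h of 4-Hydroxytamoxifen in vitro as 2-cell embryos taken at 46 hpi, then culture in KSOM. There was no untreated or unlabelled group. The labels give 36 blastomeres of 9 4-cell embryos and 31 of 4 8-cell embryos, with 5 and 6 more from a 5-cell and a 6-cell embryo that have no column here. The gene tables hold 24 and 26 columns whose names (S1 to S24, S48 to S68, and 5 named NA) give neither embryo nor lineage. Blastomeres of 1 embryo are not replicates, and the column names do not say which columns share an embryo, so each stage was counted as 1 sample and no test was made. All comparisons below are differences in size with no p-value, "past 2-fold" means a difference of mean log2(FPKM + 1) above 1 in size, and ranges over blastomeres are given in place of an error.

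In this family, guard proteins such as Mcl1 and Bcl-xL hold the effectors Bax and Bak in check. BH3-only proteins bind the guards or the effectors and tip the balance towards pores in the membrane, release of cytochrome c and activation of caspases. In the early mouse embryo Mcl1 is needed before implantation, and Bcl2l10 is known as an ovary and oocyte transcript.

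Both tables held transcripts of early embryos. All 8 genes of a list of preimplantation blastomere markers had a row at both stages, but only 5 and 4 of them were above FPKM 1 in most columns. Dppa3 was highest, with medians of FPKM 3658 and 3260, and Tead4 was above 1 in all 50 blastomeres. Ooep was above 1 in 11 and 9 blastomeres, Zscan4d in 6 and 2, and Obox3 in none. Of 8 cumulus and granulosa markers, 6, Ptx3 and Foxl2 among them, had no value above 0 anywhere, and the list's sum reached at most 0.132 among 4-cell and 1.66 among 8-cell blastomeres. Of 6 blood and immune markers, the haemoglobin genes Hba-a1 and Hbb-bs and the leukocyte gene Ptprc had no value above 0, while Cd52 and Cd74 were above 1 in 4 to 6 blastomeres a stage and the sum reached 13.4 and 39.5. Of 6 sperm markers, the protamines Prm1 and Prm2 were above 1 in 1 or 2 blastomeres a stage, and the sum reached 8.79 and 23.3. The part of these in the results was not tested. No 2 columns were identical, and column pairs correlated at 0.491 to 0.903 across genes.

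Depth was read from the spacing of low FPKM values, which fall within 0.1 of a whole number of fragments for at least 90.6% of the values used in every column. In mega-fragments (M) it came to 6.87 to 16.9 M a blastomere at the 4-cell stage. At the 8-cell stage it came to 14.4 to 21.7 M, apart from the blastomeres with few genes, which reached down to 2.34 M in S57. FPKM, fragments per kilobase of transcript scaled to library depth, is a share of a cell's library, so less RNA per cell cannot be seen in it.

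The survival genes differed widely in level. Mcl1, whose short-lived protein guards against Bax and Bak, was above 0 in all 50 blastomeres. Its level ran from FPKM 25.04 over a median of 52.0 to 214.9 at the 4-cell stage and from 14.6 over 53.5 to 104 at the 8-cell stage, so the stages overlapped. By mean FPKM it exceeded 89.6% and 89.2% of the genes of the tables. Bcl2l1, which encodes Bcl-xL, lay about an order of magnitude lower, with medians of FPKM 3.23 and 4.88. It was above 1 in 15 of 24 4-cell blastomeres, up to 26.6, and in 16 of 26 8-cell blastomeres, up to 21.6. At the 4-cell stage it was either at 0, in 9 blastomeres, or at 1.15 and more.

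Bcl2l10, a guard protein found mainly in the ovary and the egg, was above 0 in 11 of 24 4-cell blastomeres. The values were FPKM 67.6 in S20, 29.2 in S21, 20.4 in S23, 19.8 in S15, 12.7 in S13, 10.1 in S17, 6.79 in S6, 4.91 in S8, 2.61 in S22, 0.933 in S3 and 0.35 in S7. The other 13 were at 0, where 3 fragments, the limit a count of 0 allows, would have given 0.145 to 0.253. That limit covers counting error only, not loss of transcripts before amplification. At the 8-cell stage it was above 0 in 3 of 26, at 4.54 and 1.77 in NA2 and NA3 and at 3.65 in S49. The highest of these stood on an estimated 91.9 fragments, and 8 of the 4-cell blastomeres lay above it. Bcl2, the founder of the family and a survival gene of many adult tissues, was at FPKM 0.596 in 1 4-cell blastomere, S5, on an estimated 59.6 fragments, and at 0 in the other 23.

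The effectors were unequal. Bax was the most abundant member, above FPKM 1 in 23 of 24 4-cell and in all 26 8-cell blastomeres. Its level ran from 0 in S20 over a median of 89.3 to 238 at the 4-cell stage and from 25.7 over 74.7 to 250 at the 8-cell stage. Bak1, the other pore-forming effector, was above 0 in 3 and 5 blastomeres and reached FPKM 0.552 and 1.15. It entered the comparison of stages, which needed a value above FPKM 1 in at least 1 blastomere, only through that 1.15, in NA4. In the blastomeres with either transcript, Bax made up 98.0% to 100% of the sum of Bax and Bak1. Bok, a further Bax-like gene that is no member and was named after its values were seen, had medians of FPKM 32.2 and 32.8.

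Among the BH3-only genes, Bid, which links death receptor signalling to the mitochondria, led at the 4-cell stage. It was above FPKM 1 in 20 of 24 4-cell blastomeres, with a median of 52.3 and a highest value of 135, and in 14 of 26 8-cell blastomeres, with a median of 6.84 and a highest value of 48.3. Of the 4-cell blastomeres, 14 lay above the highest 8-cell value, and no 8-cell blastomere reached the 4-cell median, although values at or near 0 occurred at both stages. Bcl2l11, which encodes Bim, a BH3-only protein that binds all of the guards, was above 1 in 16 of 24 blastomeres with a median of 4.11 and a highest value of 26.5, and later in 12 of 26 with a median of 0.495 and a highest value of 10.1. Bbc3, which encodes the p53 target Puma, was above 1 in 4 of 24 and in 9 of 26 blastomeres, with highest values of 6.45 and 10.8. Bik, a BH3-only gene of the endoplasmic reticulum, was at 5.78 in 1 8-cell blastomere, NA5, on an estimated 118 fragments, and at 0 in the other 25.

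**Figure D1:**
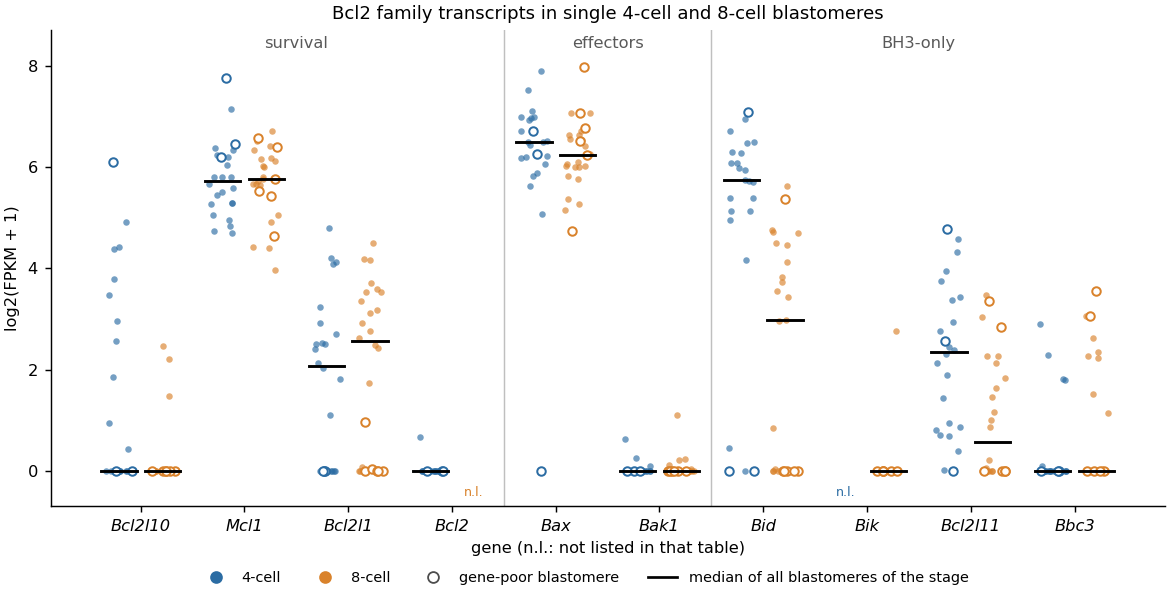
Level of each member in every blastomere, as log2(FPKM + 1), for 24 4-cell (blue) and 26 8-cell (orange) blastomeres. Open circles are blastomeres with few genes, black bars are medians over all blastomeres of the stage. Mcl1 and Bax sit high at both stages, Bid has medians of FPKM 52.3 and 6.84, and Bcl2, Bak1 and Bik are at 0 in all but 1 to 5 blastomeres of a stage.

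The first comparison asks how the members stand at the 8-cell against the 4-cell stage. Of the 8 members tested, 3 were lower past 2-fold at the 8-cell stage and 0 were higher. Over all 13041 genes tested, 7.05% were lower and 4.75% were higher past that size. The median difference of the 8 members was -0.03 on the log2 scale and that of all genes -0.06.

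Bid was lower by the most, with mean levels of log2(FPKM + 1) of 4.92 and 2.29, a difference of -2.63 or 6.19-fold on that scale. Of all genes tested, 0.192% had a lower difference. Bcl2l10 had mean levels of 1.49 and 0.24, a difference of -1.26, and it rested on the 11 against 3 blastomeres with any transcript. Bcl2l11 had mean levels of 2.23 and 1.06, a difference of -1.16. So the 3 members past 2-fold were a guard and a pair of BH3-only genes. The abundant guard and the abundant effector stood level, with differences of -0.08 for Mcl1 and 0.02 for Bax, as did Bcl2l1 at 0.24. The value of Bax depended on the 0 in S20, without which it was -0.25, and it was -0.34 without gene-poor columns. That of Bcl2l1 was 0.54 without gene-poor columns and -0.08 without the columns named NA. None of these was past 2-fold. Bbc3 differed by 0.47 in the other direction. Bak1, near 0 throughout, differed by 0.02.

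Leaving out any 1 column left the difference of Bid between -2.84 and -2.54, that of Bcl2l10 between -1.35 and -1.06 and that of Bcl2l11 between -1.26 and -1.05. This cannot show whether a call rests on a run of columns. Bcl2l10 reached FPKM 6.79 (S6) over S1 to S12 and 67.6 (S20) over S13 to S24. Bcl2l11 reached 9.39 (S8) and 26.5 (S18) over the same runs. How far the 2 calls depend on the later columns was not tested. With a pseudocount of 0.1 the differences were larger, at -2.28 for both Bcl2l10 and Bcl2l11, -3.61 for Bid and 0.998 for Bbc3, which stayed just within 2-fold. With medians in place of means, Bcl2l10 was at 0 at both stages and was no longer past 2-fold. Stage, embryo and any difference in handling between the 2 sets of libraries cannot be told apart.

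**Figure D2:**
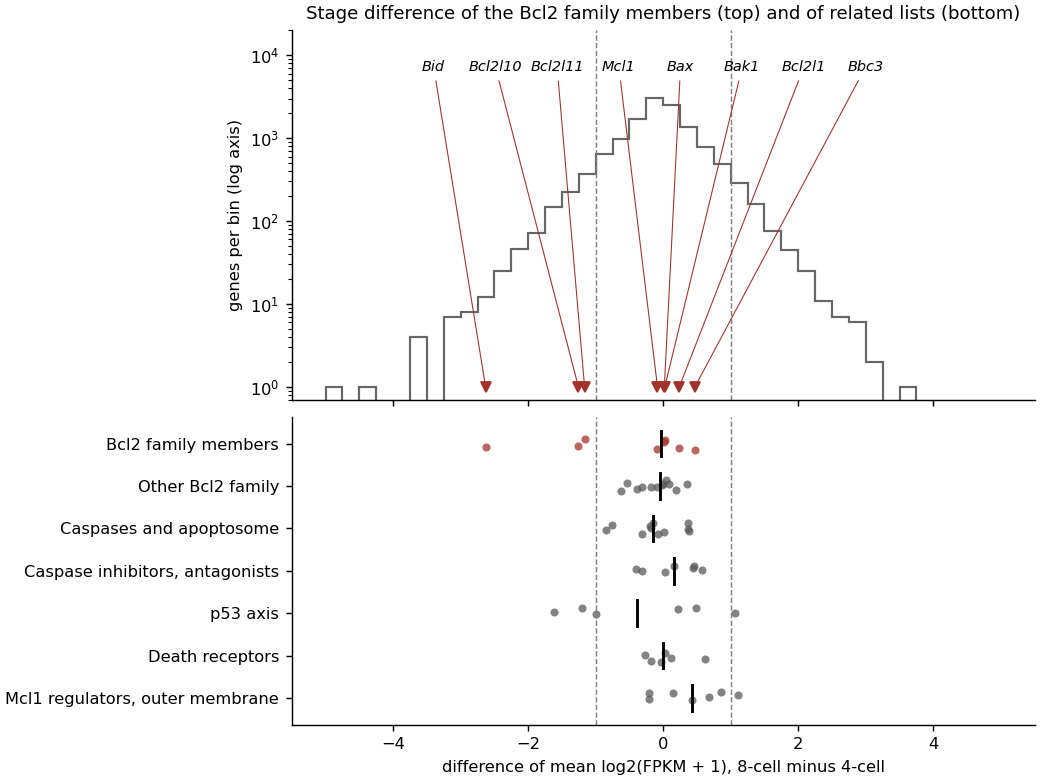
Difference of mean log2(FPKM + 1), 8-cell minus 4-cell. The upper panel gives the number of genes per bin for all 13041 genes tested (log axis) with the 8 members as triangles; the lower panel gives the members and 6 related lists gene by gene, with their medians as black bars and 2-fold as dashed lines. Bid, Bcl2l10 and Bcl2l11 lie past 2-fold on the left, and the other 5 members lie between -0.08 and 0.47.

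Genes that act before and after the family were taken from 6 lists. Of their 57 genes, 49 could be tested, and 2 were higher and 2 lower past 2-fold, beside 4.75% higher and 7.05% lower of all genes, with a median difference of -0.001. In the p53 axis, Cdkn1a, which encodes the cell cycle inhibitor p21, had medians of FPKM 125 and 41.9, a difference of -1.62. Mdm4, a brake on p53, had medians of 70.9 and 31.4, a difference of -1.21. Ccng1, a p53 target, went the other way, with medians of 3.71 and 9.59 and a difference of 1.06, while Trp53 itself had medians of 35.4 and 36.0035 and a difference of 0.48. That made 1 higher and 2 lower of 6 tested.

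None of the 12 other family genes tested was past 2-fold in either direction. The most abundant was Bnip3, a BH3-like protein linked to removal of mitochondria, with medians of FPKM 840 and 595, then its relative Bnip3l with 146 and 144, and Bcl2l14 with 119 and 101. None of the 11 caspase and apoptosome genes tested was past 2-fold. Casp6, an executioner caspase, had medians of 87.7 and 91.0, Dffb, a nuclease of dying cells, 31.5 and 35.1, and Cycs, cytochrome c, 36.3 and 31.6. None of the 7 caspase inhibitors and their antagonists was past it, with Birc5, which also serves in cell division, at 93.1 and 58.8, Diablo, an antagonist released from mitochondria, at 93.8 and 51.1, and Birc3 at 16.3 and 20.02. None of the 6 death receptor genes tested was past it, and they were low, with medians of 2.32 and 2.17 for Fadd, 3.14 and 1.73 for Tnfrsf10b and 0 and 4.51 for Tradd.

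Of 7 regulators of Mcl1 protein and outer membrane partners, 1 was higher past 2-fold. This was Huwe1, a ubiquitin ligase of Mcl1, with medians of FPKM 5.24 and 13.1 and a difference of 1.11. The channel genes Vdac1 and Vdac3 had medians of 146 and 193 and of 94.3 and 131, with differences of 0.43 and 0.68, and Tpt1, whose product binds Mcl1, had 191 and 199.

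Within blastomeres, Bid made up a median of 91.7% of the summed FPKM of the 4 BH3-only members at the 4-cell stage, and 79.0% at the later stage. Bik had no 4-cell row and added nothing to the sum there. The medians are over the 23 and 22 blastomeres where these members had a sum above 0. The sum of these members had a median of 63.5 over 4-cell and 12.4 over 8-cell blastomeres, with highest values of 140 and 48.3. Bid was the most abundant of them in 21 of 24 4-cell blastomeres. Among 26 8-cell blastomeres, Bid led in 14, Bcl2l11 in 5 and Bbc3 in 3, and 4 had none of these 4 transcripts. Other BH3-only genes stood in the related lists and were not part of the sum. Bad, named after its values were seen, had medians of FPKM 29.1 and 23.1, the second above that of Bid. The summed survival level had medians of 58.6 and 67.0, of which Mcl1 made up a median of 87.8% and 92.1%. Mcl1 was above Bax in 6 of 24 and in 8 of 26 blastomeres, and the ratio of Mcl1 to Bax had medians of 0.582 and 0.614 where Bax was above 0.

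**Figure D3:**
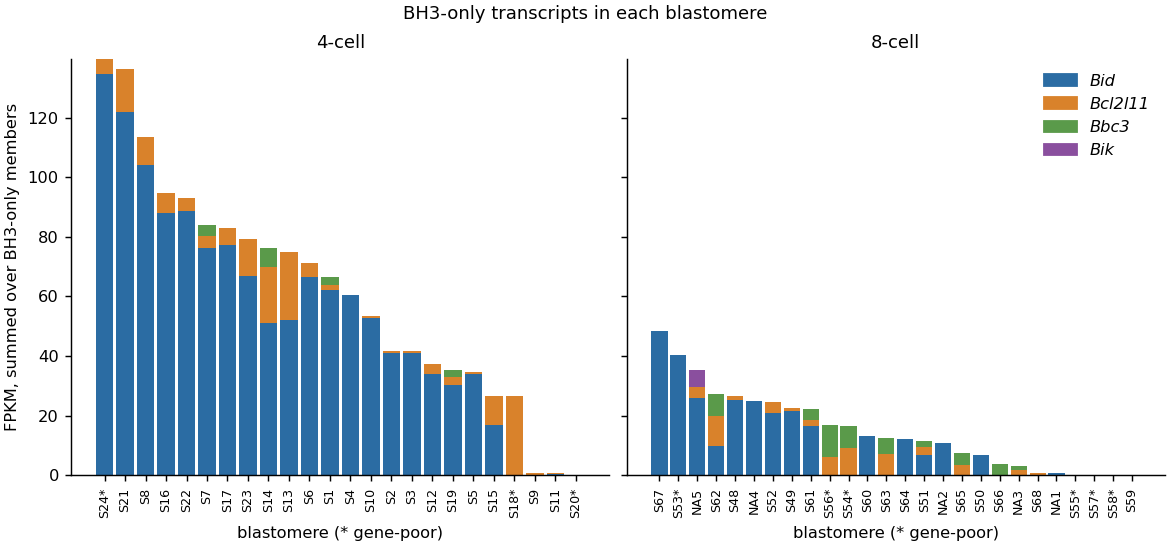
Summed FPKM of the BH3-only members in each blastomere, in falling order, with 1 colour per gene and an asterisk at blastomeres with few genes. The sums reach 140 and 48.3 in the panels, and Bid is the most abundant in 21 of 24 4-cell blastomeres against 14 of 26 8-cell blastomeres.

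Bcl2l11 and Bbc3 often occurred together in 8-cell blastomeres. Of the 9 with Bbc3 above FPKM 1, 8 also had Bcl2l11 above 1. Of the 17 without it, 4 did. Spearman's rho over the 26 blastomeres was 0.76, and it was 0.65 over the 20 with more genes. Bbc3 and Bid were above 1 together in 3 blastomeres, and Bbc3 alone in 6 and Bid alone in 11, with a rho of -0.47. At the 4-cell stage all 4 blastomeres with Bbc3 above 1 had both Bcl2l11 and Bid above 1, as did 15 of all 24. Of the 15 pairs among the 6 members correlated at that stage (Bcl2, Bak1 and Bbc3 were left out), Mcl1 with Bax had the lowest rho, -0.53 over 24 blastomeres and -0.52 over the 21 with more genes, against -0.06 at the 8-cell stage. These are descriptions without a test. The points share embryos, which the column names do not give, library preparation and many values at 0, and the pairs were picked after their values were seen.

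**Figure D4:**
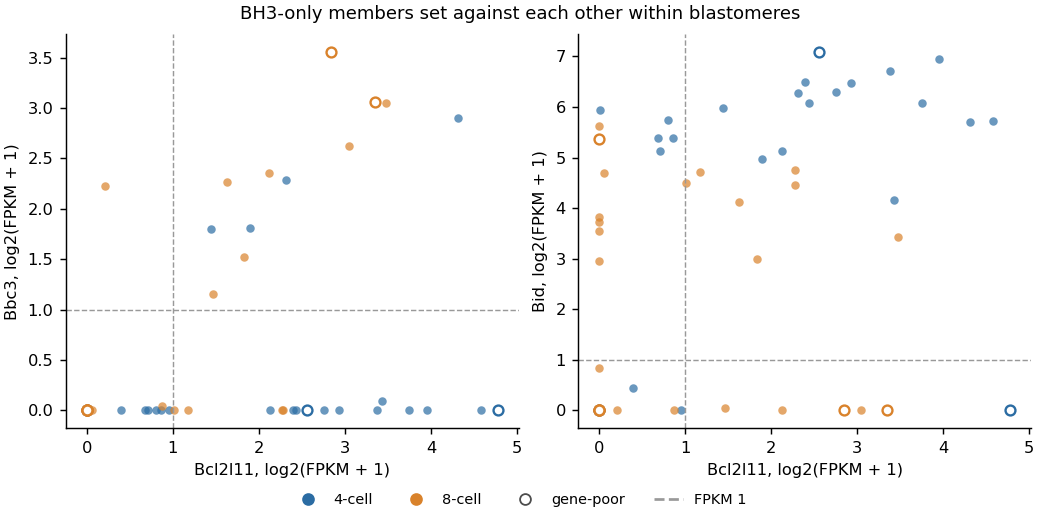
Bcl2l11 against Bbc3 (left) and against Bid (right) in each blastomere, as log2(FPKM + 1). Dashed lines mark FPKM 1 and open circles mark blastomeres with few genes. On the left, 8 of the 9 8-cell blastomeres with Bbc3 above FPKM 1 lie in the upper right field.

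For Bcl2l10, the genes most like it over blastomeres, taken from 931 genes above FPKM 1 in every column, were Lsg1, Fam76a, Usp10, Eif1a and Ppih. The lower of their Spearman values at the 2 stages ran from 0.30 for Ppih to 0.38 for Lsg1, which is weak, and with 3 values above 0 at the 8-cell stage it is no finding.

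Promoter sequence was at hand in RefSeq (GRCm38.p6, the assembly behind mm10) for 8 members, and Bcl2l10 and Bik were not among them. In the 250 bases before each listed start, the GC box GGGCGG, a binding sequence of Sp1-type factors, was searched on both strands. It was present 3 times before the start of Bid and before the first start of Bcl2l11, 2 times before that of Bax, once before that of Mcl1, 5, 1 and 7 times before the 3 starts of Bbc3, 2 times before the second start of Bcl2l11 and 7 times before the start of Bcl2. Before the 3 starts of Bcl2l1 and the start of Bak1 these letters were not found. Of all 32817 promoters of that length, 32.7% held it. The box therefore stood before members that were lower at the 8-cell stage and before members that stood level. The 30 bases around the box nearest to the start are shown for the first start of Bcl2l11, a member that was lower, for Bax, one that stood level, and for the first start of Bbc3. They are written 5′ to 3′ on the gene's strand with the box in capitals, and in Bbc3 the capitals hold 2 overlapping boxes. A match of letters is a description only.
Bcl2l11, chr2:128125980-128126009, plus strand: gattgggcgcggGGGCGGgggctcaactac
Bax, chr7:45466916-45466945, minus strand: gtacccgcggccCCGCCCctgcagcgagcg
Bbc3, chr7:16309553-16309582, plus strand: gccagcgagaggcgGGGCGGGGCGGccgcc
The genes themselves lie at chr2:128126038-128162547 (Bcl2l11), chr7:45461695-45466903 (Bax) and chr7:16308398-16318334 (Bbc3), and none of the shown windows falls in an annotated exon of its gene. Bid lies at chr6:120893119-120917062, Mcl1 at chr3:95656944-95663179 and Bcl2l10 at chr9:75347758-75351640. Values are per gene over its exons, so isoforms of Bcl2l11, Bcl2l1 and Bbc3, which have several curated transcripts, cannot be told apart.

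The second comparison asks how the members stand in blastomeres with few genes above FPKM 1, called gene-poor here. At the 4-cell stage these were the 3 with under 5000 such genes (S18 with 3009, S20 with 3699 and S24 with 4939), and the other 21 had 5336 to 8276. At the 8-cell stage they were the 6 with under 5500 (S53 to S58, 3548 to 5391), and the other 20 had 5884 to 8078. The number of genes was itself counted over all genes of these columns, members included, so lower values are built into the split, and what follows is a description. Just inside the limit, S24 had Mcl1 at FPKM 72.3, Bax at 104 and Bid at 135, and just outside it S21 had 32.1, 71.2 and 122. At the 8-cell stage S54, just inside, had 42.1, 74.2 and 0, and S67, just outside, had 49.6, 97.7 and 48.3.

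At the 4-cell stage the 3 gene-poor blastomeres did not look alike. Mcl1 was at FPKM 215 in S18, 86.7 in S20 and 72.3 in S24, against 25.04 to 141 with a median of 47.1 in the others, so all 3 lay above that median and 1 lay above every other blastomere. Bax was at 75.6, 0 and 104 in the same order, against 32.6 to 238 in the others. Bid was at 0, 0 and 135, against a median of 52.7 in the others, so the highest Bid value of the stage and 2 of its 3 zeros were in gene-poor blastomeres. S20 held the highest Bcl2l10 value of all, 67.6, and had no Bax, Bid, Bcl2l11, Bbc3 or Bcl2l1. S18 had Bcl2l11 at 26.5, the highest of the stage. Bcl2l1 was at 0 in all 3, and it was also at 0 in 6 of the 21 others, which had a median of 4.30, a mean of 5.97 and a highest value of 26.6. With a floor of 3 fragments per library in the 3, the mean FPKM is at least 69.4-fold lower, and the difference of mean log2(FPKM + 1) is -1.93.

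Of the 7 members tested there, 1 was higher and 3 were lower past 2-fold, beside 5.24% higher and 35.6% lower of all 13576 genes. The differences were 1.18 for Mcl1, -2.93 for Bid, -2.19 for Bax and -2.05 for Bcl2l1, the last fitted against 0. Their median was -0.42, or -0.27 with members at 0 in all gene-poor blastomeres set to their bound, and that of all genes -0.52. Of the 48 genes of the related lists, 2 were higher and 19 lower, which is 39.6%. The calls of Mcl1 and Bax each rested on 1 blastomere: without S18 Mcl1 differed by 0.70, and without S20 Bax differed by -0.03. Bcl2l1 was at 0 in all 3, so leaving out 1 of them could not move it. Bid differed by -1.75 without S18 or S20 and by -5.29 without S24. Bcl2l10 differed by 0.62, by 1.63 without S18 or S24 and by -1.42 without S20. Bcl2l11 differed by 0.25, by -0.92 without S18, by 1.47 without S20 and by 0.19 without S24. Depth was 9.66 to 13.3 M fragments in the 3 and 6.87 to 16.9 M in the others, and the summed blastomere markers were 1354 to 4948 against 2517 to 5082. Most of that sum was Dppa3, which ran from FPKM 1303 to 4901 over the stage. The summed FPKM of all genes was 266873 in S18, 309126 in S20 and 469141 in S24, against 377758 to 494910 in the others. Their part in these values was not tested.

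At the 8-cell stage the 6 gene-poor blastomeres had Mcl1 and Bax and mostly lacked Bcl2l1 and Bid. They are the consecutive columns S53 to S58, and the names do not give their embryos, so few genes and a shared embryo cannot be told apart. Mcl1 ran from FPKM 23.99 over a median of 49.3 to 94.8, within the 14.6 to 104 of the others. Bax ran from 25.7 in S57 over 99.5 to 250 in S55, and the others ran from 34.4 to 132. Bcl2l1 was at 0.943 in S53, at 0.0194 in S55 and at 0 in the other 4, whereas 16 of the 20 other blastomeres lay above 1 with a median of 7.09. Bid was at 40.5 in S53 and at 0 in the other 5, whereas 13 of the 20 others lay above 1. Bcl2l11 and Bbc3 were above 1 in the same 2 of the 6, at 9.21 and 7.33 in S54 and at 6.18 and 10.8 in S56. S55, S57 and S58 had no Bid, Bik, Bcl2l11 or Bbc3. In S57, the shallowest library, 3 fragments correspond to 0.678 for Bid and 0.394 for Bcl2l1.

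Of the 9 members tested there, 0 were higher and 2 were lower past 2-fold, beside 4.23% higher and 23.8% lower of all 13041 genes. These were Bcl2l1, at -2.43, and Bid, at -1.82. The members' median was -0.09 and that of all genes -0.30. Bcl2l10, Bak1 and Bik were at 0 in all 6, and their bounds lay above 0, at 0.03, 0.14 and 0.28. With their differences set to 0, the members' median was 0. Of the 49 genes of the related lists, 1 was higher and 8 were lower, which is 16.3%. Without any 1 of the 6, Bcl2l1 differed by -2.59 to -2.40 and Bid by -2.71 to -1.64, with the lowest Bid value without S53. With a pseudocount of 0.1, Bcl2l1 differed by -4.54 and Bid by -3.50. Depth was 2.34 to 18.6 M fragments in the 6 against 14.4 to 21.7 M in the others. The summed FPKM of all genes was 459131 to 520671 in the 6 against 364937 to 463052 in the others. The summed blastomere markers were 3902 to 10456 against 2847 to 3960. Most of that sum was Dppa3, whose highest 8-cell value was 10166.5. The blood and immune sum reached 39.5 and the sperm sum 23.3 in the 6, against 29.8 and 10.3 in the others. Each of these 2 sums was above 1 in only 1 of the 6, and in 9 and 3 of all 26 blastomeres. The part of depth and of these sums in the values was not tested.

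Bcl2l1 and Bid were lower past 2-fold at both stages, in a split where 35.6% and 23.8% of all genes were. The members' counts were 3 of 7 and 2 of 9. Bbc3 among the 7, and Bcl2l10, Bak1 and Bik among the 9, were at 0 in every gene-poor blastomere of the stage. They were too low in the others to pass 2-fold as log2(FPKM + 1), so the counts decide nothing against those shares. Mcl1 transcript was present in all 9 gene-poor blastomeres.

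**Figure D5:**
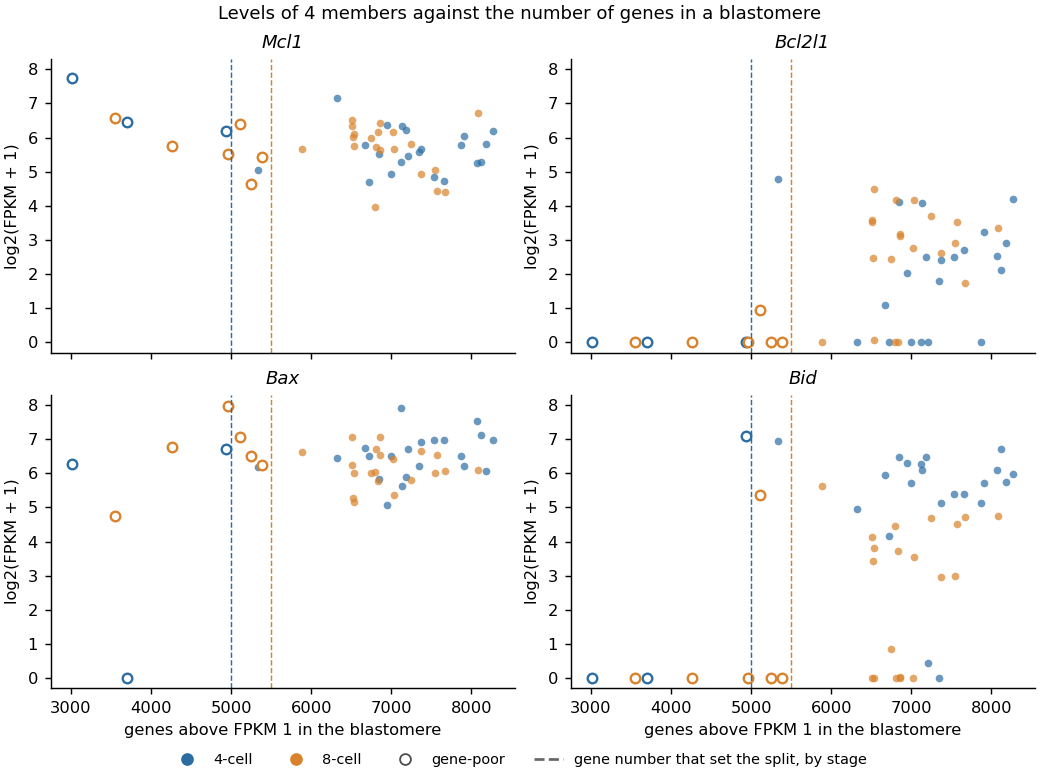
Level of Mcl1, Bcl2l1, Bax and Bid in each blastomere, as log2(FPKM + 1), against its number of genes above FPKM 1. Dashed lines mark the limits of 5000 (4-cell) and 5500 genes (8-cell) and open circles the blastomeres below them. Mcl1 and Bax stay high on the left except for Bax in S20, while Bcl2l1 is at FPKM 0.943 or below in all 9 gene-poor blastomeres and Bid is above 1 in 2 of them.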

How the data were processed

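Single blastomeres were sequenced by Smart-seq2 and Nextera XT. The authors aligned reads with STAR 2.5.1b to mm10, counted uniquely aligned reads with HTSeq on Refseq genes, and deposited FPKM per gene, 1 table per stage. The stage of each table was taken from its name and from its numbers of genes and blastomeres, which match those the study gives for that stage. Tables of transposon copies were not used here. Entrez numbers were matched to RefSeq (GRCm38.p6), 15200 of 15218 and 15320 of 15342. The 5 columns named NA were used with the 45 named ones.

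The members, lists and limits were chosen with earlier results of these data known. Named were all 10 members, and per list the 3 genes with the highest mean FPKM and any past 2-fold in the stage difference, up to 4; Bad and Bok were added after their values were seen. Levels were compared as log2(FPKM + 1), over genes above FPKM 1 in at least 1 blastomere; the pseudocount shrinks differences of low genes. Depth was estimated from the steps of low values, with exon lengths from RefSeq, and covers counting error only. The estimate and the comparison were tested on simulated data. Python packages were numpy 2.4.6, pandas 2.3.3, scipy 1.17.1 and matplotlib 3.10.9. Alternatives were another pseudocount, filter, scaling and average, and leaving out columns.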

Additional observations from a re-analysis of the deposited data

How the results depend on the processing

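The number of members past 2-fold in the stage comparison was 3 and lay between 2 and 3 under 8 other settings; it stayed at 3 with a pseudocount of 0.1, without gene-poor columns, without the columns named NA and with other scalings. Leaving out any 1 column left it at 3, which cannot show dependence on a run of columns. In the gene-poor comparisons only gene-poor columns were left out, which gave 4 to 5 members at the 4-cell stage and 2 at the 8-cell stage. At the 4-cell stage the members behind the count changed with the column left out, and only Bcl2l1 and Bid stayed past 2-fold each time. Bid was past 2-fold in all 8 settings and Bcl2l11 in all 8, Bcl2l10 in 6 of 7. Counts over all genes moved more. With a pseudocount of 0.1, 1352 genes were higher and 2255 lower at the 8-cell stage, against 620 and 919, and 7271 and 5440 were lower in gene-poor 4-cell and 8-cell blastomeres, against 4837 and 3106. No paired analysis was possible because the column names give neither embryo nor replicate number. Columns were not assigned to embryos by their order or depth. The study lists reads for each blastomere of each embryo, and whether these would place the columns was not tested. With each stage counted as 1 sample, no setting gives a test, and the spread between embryos was not measured.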
